A study of Rattus norvegicus with 12 samples.

Results

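Leukocyte adhesion molecules were described in the rat prostate through 7 genes: the endothelial ligands Icam1 and Vcam1, the selectins Sele and Selp, and the leukocyte-side partners Selplg, Itgal and Itga4. Probes were chosen by the gene name on the array, which matched 6 of the 7 genes with 7 probes. Selplg was reached through its RefSeq synonym, which the array carries as Selpl, and this gave 7 genes and 8 probes among 15610 named genes and 41012 probes. Of these 8 probes, 7 passed the filter on dim probes, 1 for each gene. A further Itgal probe stayed below the scanner's background limit on all arrays and was left out of all tests.

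Prostate RNA was measured on 12 two-colour arrays, 3 for each group of male rats aged 10 weeks. The obstruction/Eviprostat rats had a partial bladder outlet obstruction, made with a ring tied around the urethra near the bladder, and were dosed with Eviprostat, a plant-based drug given for benign prostatic hyperplasia. They received 36 mg/kg daily, as doses of 18 mg/kg, over 5 days. The obstruction/vehicle rats had the same operation and received 0.1% Tween 80. The sham/Eviprostat and sham/vehicle rats had a sham operation and the same 2 treatments. Dosing began on the day after the operation in obstructed rats and 5 days after it in sham rats, so obstruction and time since surgery cannot be told apart. Each group held 5 or 6 animals, and the labelling protocol speaks of tissue pooled within a group, so p-values measure the spread between arrays and not between animals.

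Leukocytes leave the blood in steps: selectins on activated endothelium and platelets slow the cells, chemokines switch on their integrins, and these integrins then hold firmly to immunoglobulin-type ligands on the endothelium. P-selectin binds PSGL-1, the product of Selplg; ICAM-1 binds the integrin LFA-1, whose alpha chain is the product of Itgal; and VCAM-1 binds VLA-4, whose alpha chain is the product of Itga4. Interleukin-1 and tumour necrosis factor induce Icam1, Vcam1 and Sele in endothelium through nuclear factor kappa B, and epithelial cells and macrophages can also make ICAM-1.

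The promoters of Icam1 and Vcam1 are shown because these 2 genes were the ones that differed with obstruction. Each line gives the 250 bases before the gene start, 5′ to 3′ on the gene's strand, from RefSeq on build GRCr8, with capitals at every match to GGNNNTTCC on either strand, a simplified nuclear factor kappa B motif. The Icam1 window is chr8:27829595-27829844 on the plus strand and the Vcam1 window is chr2:206742784-206743033 on the minus strand.
Icam1: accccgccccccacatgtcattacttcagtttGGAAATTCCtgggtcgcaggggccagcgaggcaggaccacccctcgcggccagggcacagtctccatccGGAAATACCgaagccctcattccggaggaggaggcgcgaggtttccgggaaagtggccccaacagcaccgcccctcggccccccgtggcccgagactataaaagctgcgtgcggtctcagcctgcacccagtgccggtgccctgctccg
Vcam1: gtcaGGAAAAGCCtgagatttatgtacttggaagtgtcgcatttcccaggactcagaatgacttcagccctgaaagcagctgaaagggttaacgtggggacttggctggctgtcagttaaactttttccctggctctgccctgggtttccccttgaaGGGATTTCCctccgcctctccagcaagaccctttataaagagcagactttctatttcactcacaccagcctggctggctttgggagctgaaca

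The Icam1 window held GGAAATTCC at 218 bases and GGAAATACC at 149 bases before the start. The Vcam1 window held GGAAAAGCC at 246 bases and GGGATTTCC at 93 bases before it. Each window also held TATAAA, at 53 bases before the start of Icam1 and 60 before that of Vcam1. Of 33469 rat promoter windows of this length, 15.4% held GGNNNTTCC and 12.9% held TATAAA on either strand. The windows of Sele and Itga4 held none of these letters, and TGANTCA, found in 6.34% of windows, was in none of the 4. No window was available for Selp, Selplg and Itgal, so these members were not searched. A match describes letters and not a binding site.

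The probes lie at chr8:20051730-20051789 for Icam1, chr2:212240449-212240508 for Vcam1 and chr13:79936266-79936325 for Selp on build rn3, per the file headers. Those of Sele (chr13:79836630-79836689), Selplg (chr12:43706442-43706501) and Itga4 (chr3:61954212-61954271) are also single stretches, while the Itgal probe used is split over chr1:186744460-186747869. No rn3 gene annotation was used, so exon and UTR positions are not given. The first 30 bases of each 60-base probe are printed in lower case to identify what was hybridized.
Icam1: aatatggacgctcacctttagcagctcaac
Vcam1: acggggacgtgtttcttcatcaggatcttg
Selp: agcagggaaggtcctcctttcggtattttg

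Every array carried its group's RNA in Cy5 and sham/vehicle RNA in Cy3, with no dye swap. The level given for a gene is the log2 ratio of Cy5 to Cy3, and a difference between groups is a difference of these log2 ratios. The 12 arrays lay on 3 slides with 1 array of each group on each, and the replicate number is the slide number. Slide 1 was scanned on another day and was dimmer, with 70.9 to 78.4% of spots well above background in Cy5, against 78.7 to 88.4% on slides 2 and 3. Each group kept its position from slide to slide, and the effects of position and group cannot be told apart. Cy5 was well above background on all 12 arrays for Icam1, Vcam1, Sele, Selp and Selplg, on 8 for Itgal and on 7 for Itga4. All 8 markers of prostate secretory epithelium were well above background on every array.

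Obstruction was compared under vehicle first. Icam1 and Vcam1 rose in obstruction/vehicle prostates, while the other 5 members did not pass the test. The count of 2 members higher of 7 stands beside 7.16% of 36098 kept probes that were higher, 4.45% that were lower and 11.6% that were called in either direction (limma, adjusted p under 0.05). With the slide as a block, 9125 probes were called in place of 4191, and the member calls did not change. The split of calls depended on scaling: 2583 of 4191 were higher after loess, 1613 of 1788 after median centring and 5928 of 14480 with the scanner's own log ratio. The median difference of the 7 members was 0.14, against -0.01 over all kept probes.

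Icam1, the ligand of the leukocyte integrins LFA-1 and Mac-1, read 1.75, 1.15 and 1.73 in log2 ratio on the obstruction/vehicle arrays of slides 1, 2 and 3, against 0.16, 0.06 and 0.08 on the sham/vehicle arrays. All 3 obstruction/vehicle arrays were above all 9 others. The difference was 1.44 ± 0.13 (SE), 2.71-fold higher (limma, adjusted p = 2.38e-05). Within slides it was 1.58, 1.09 and 1.65.

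Slide 2 was not lower with the scanner's own log ratio, where the obstruction/vehicle arrays read 1.64, 1.69 and 1.66 and the sham/vehicle arrays 0.14, 0.07 and 0.08. The Icam1 probe was printed 10 times on each array, with 8 to 10 spots used, and the SD among spots of an array ran from 0.04 to 0.45. Cy3 of the Icam1 probe was also brighter on obstruction/vehicle arrays, at 384, 477 and 516 net intensity, against 196, 256 and 276 on sham/vehicle arrays and at most 327 on any other array. Cy3 carried sham/vehicle RNA on all of them, and the cause was not tested. From Cy5 alone the difference was 2.30, with mean levels of 11.03 in obstruction/vehicle and 8.73 in sham/vehicle on the log2 scale, a larger difference than that of the ratio.

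Vcam1, the ligand of the integrin VLA-4, read 1.37, 0.69 and 1.64 in obstruction/vehicle and 0.07, -0.08 and -0.03 in sham/vehicle. The groups did not overlap, and slide 2 was again the lowest after loess. The difference was 1.25 ± 0.19 (SE), 2.38-fold higher (adjusted p = 0.000936), and 1.30, 0.78 and 1.68 within slides. Unlike that of Icam1, the Vcam1 probe had similar Cy3 on obstruction/vehicle arrays (236 to 262) and sham/vehicle arrays (193 to 251), and its difference from Cy5 alone was 1.45.

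**Figure D1:**
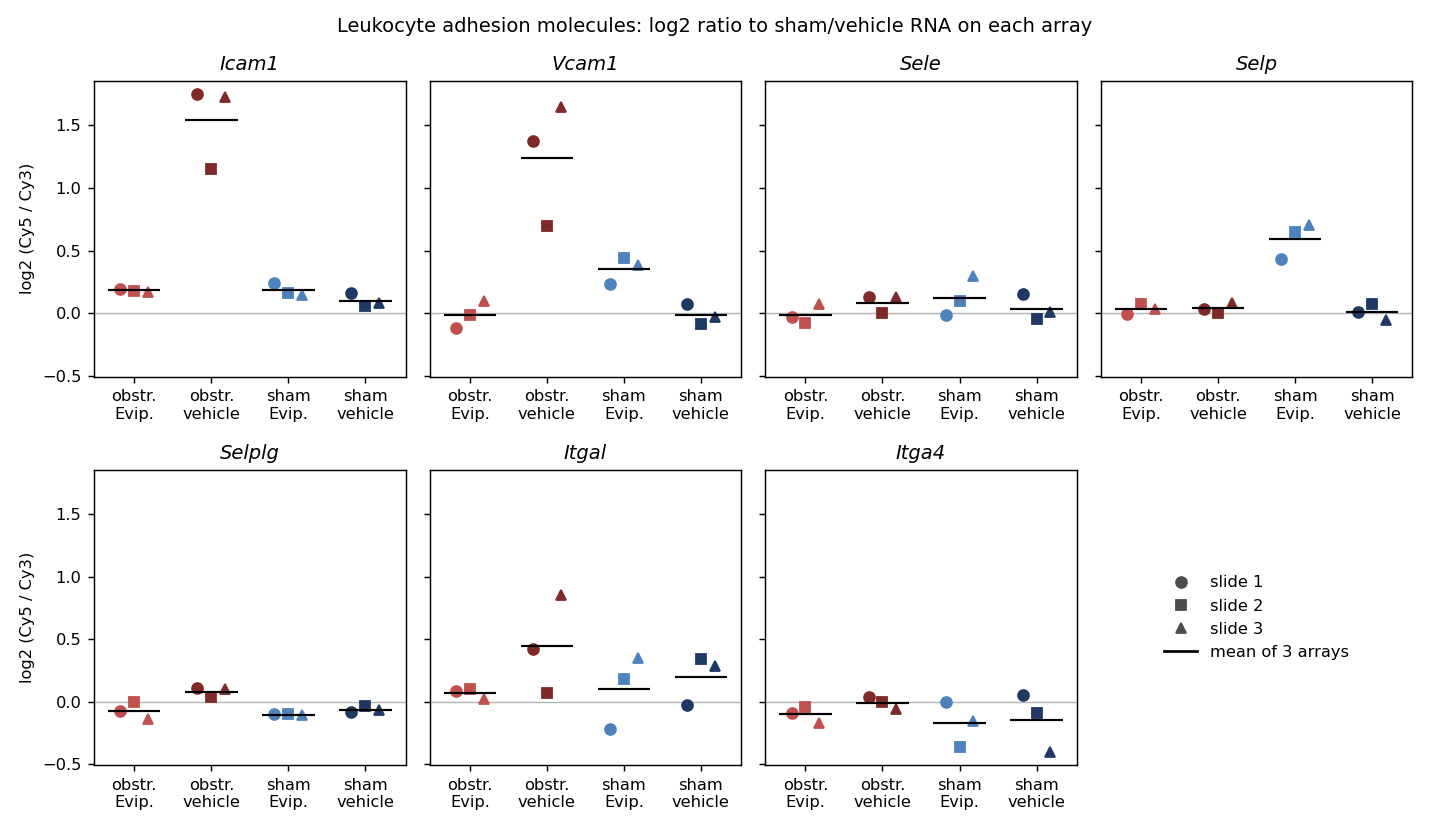
Log2 ratio of Cy5 to Cy3 (vertical axis, the same in all panels) of each member on the 12 arrays, in the groups obstruction/Eviprostat, obstruction/vehicle, sham/Eviprostat and sham/vehicle. Symbols mark the slides and bars the mean of 3 arrays. Icam1 and Vcam1 stand apart in obstruction/vehicle, and Selp in sham/Eviprostat, where its 3 arrays read 0.43 to 0.70.

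The selectins gave no call with obstruction. Sele, endothelial E-selectin, read 0.13, -0.00 and 0.12 in obstruction/vehicle and 0.15, -0.05 and 0.01 in sham/vehicle. The groups overlapped, with a difference of 0.05 and a 95% confidence interval of -0.17 to 0.26. Selp, P-selectin of platelets and endothelium, differed by 0.03, with an interval of -0.16 to 0.22. Sele was dim, with a net Cy5 intensity of 30.9 to 187 over all arrays.

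Among the leukocyte-side members, Selplg, the P-selectin ligand of leukocytes, read 0.11, 0.04 and 0.10 in obstruction/vehicle and -0.08, -0.04 and -0.07 in sham/vehicle. These groups did not overlap, yet the difference of 0.14 (95% interval -0.02 to 0.30) did not pass the test (adjusted p = 0.258). Groups without overlap were found for 3 of the 7 members and for 24.7% of all kept probes. Its call depended on the processing: Selplg was called without background correction (0.09, adjusted p = 0.0307) and with the scanner's log ratio (0.34, adjusted p = 0.0383).

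Itgal, the alpha chain of LFA-1, read 0.42, 0.07 and 0.85 in obstruction/vehicle and -0.03, 0.34 and 0.28 in sham/vehicle. The groups overlapped, with a difference of 0.25 (95% interval -0.16 to 0.66, adjusted p = 0.484). Its Cy3 signal was well above background on 1 array only, so the ratio rests on a channel near background. Net Cy5 intensity was 40.0, 214 and 243 in obstruction/vehicle, against 26.0, 67.2 and 67.0 in sham/vehicle. Itgal was called without background correction (0.16, adjusted p = 0.0246), with the scanner's log ratio (1.52, adjusted p = 0.0257) and from Cy5 alone (0.51, adjusted p = 0.0296). Itga4, the alpha chain of VLA-4, differed by 0.14 (95% interval -0.13 to 0.40), with Cy5 well above background on 2 of 3 arrays in each of these 2 groups.

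The partners of these molecules gave a mixed picture. Of 7 measured partner integrin genes, 3 were higher in obstruction/vehicle and none lower, with a median difference of 0.12. Itgb2, the beta chain shared by LFA-1 and Mac-1, rose by 1.83 (adjusted p = 0.000561), Itgam, the alpha chain of Mac-1, by 1.69 (adjusted p = 0.00792) and Itgb7 by 1.64 (adjusted p = 0.00821). The call of Itgam was lost on slides 2 and 3 alone (1.39, adjusted p = 0.0628), and its Cy5 was well above background on 1 of 3 sham/vehicle arrays. Itgb1, the beta chain of VLA-4, was measured and was not called.

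Of 14 genes for integrin activation and leukocyte motility, 11 were higher and none lower, with a median of 1.28. Plek, which encodes the platelet and leukocyte protein pleckstrin, rose by 2.47, Arhgdib by 2.18 and Fermt3, which encodes the integrin activator kindlin-3, by 2.05. Of 15 genes for other selectins and for making or carrying selectin ligands, 6 were higher and 2 lower, with a median of 0.48. Cd44, which can carry E-selectin ligands, rose by 2.05 (adjusted p = 5.04e-06). St3gal6, a sialyltransferase used in selectin ligand synthesis, fell by 1.02, a call that was lost after median centring (adjusted p = 0.207).

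Of 14 other endothelial and junctional adhesion genes, 3 were higher and 2 lower, with a median of 0.10. Esam, a junctional molecule of endothelium and platelets, rose by 1.06 (adjusted p = 0.0015). Podxl, a sialomucin, rose by 1.34 and lost its call after median centring (adjusted p = 0.0984). The inducers Il1a and Il1b rose by 2.70 and 3.66, while Tnf differed by 0.08 (adjusted p = 0.551). The part of Il1a and Il1b in the Icam1 and Vcam1 values was not tested.

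Markers of several cell types moved with obstruction in the same arrays. All 9 measured macrophage and monocyte markers, 5 of 7 general leukocyte markers and 7 of 9 neutrophil markers were higher in obstruction/vehicle, against 1 of 11 T and NK cell markers, 1 of 5 measured of 8 listed platelet markers and 0 of 2 measured of 5 listed B cell markers. Of 14 endothelial markers, 4 were higher and 1 lower, with a median of 0.61. Among those named after their values were seen, Pecam1 differed by 0.07 (adjusted p = 0.686) and Cdh5 fell by 0.45, whereas Vwf rose by 0.80 and Kdr by 1.05. The marker and pathway lists overlap, so their counts are not separate. Coro1a, Rac2 and Arhgdib are in both the general leukocyte and the motility lists, and Pecam1, Cdh5 and Esam in both endothelial lists. In whole tissue, more cells of a type and more RNA per cell cannot be told apart.

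Tissue markers moved as well. All 7 measured markers of the seminal vesicle and coagulating gland were higher in obstruction/vehicle, with a mean log2 ratio of 5.11 to 5.59 per array against 0.02 to 0.07 in sham/vehicle, and 8 of 9 skeletal muscle markers were lower. Over all kept probes, 1608 were called lower after loess and 175 after median centring. On the sham/Eviprostat arrays, where the seminal vesicle list averaged 4.65 to 4.69, Icam1 read 0.15 to 0.24 and Vcam1 0.23 to 0.44. The urothelium list averaged 1.59 to 2.23 in obstruction/vehicle and -0.07 to 0.21 in sham/vehicle. It averaged 0.10 to 0.26 in obstruction/Eviprostat and 0.36 to 0.56 in sham/Eviprostat. The part of any of these tissues in the Icam1 and Vcam1 results was not tested.

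**Figure D2:**
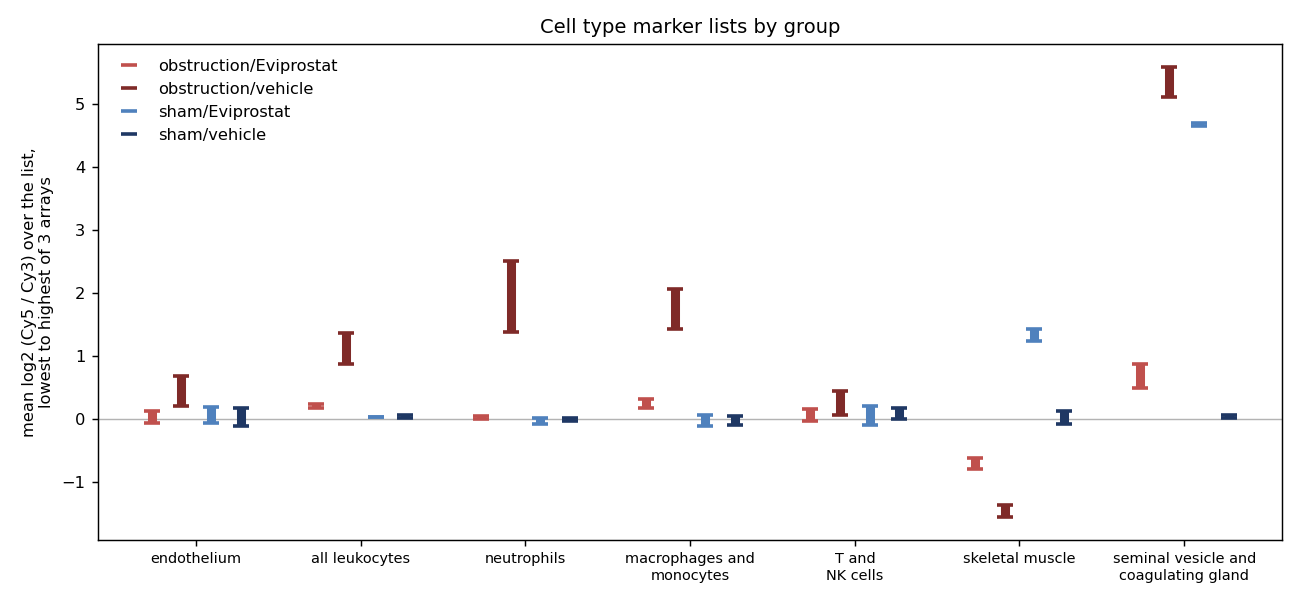
Mean log2 ratio of Cy5 to Cy3 over each marker list (vertical axis), drawn from the lowest to the highest of the 3 arrays in obstruction/Eviprostat, obstruction/vehicle, sham/Eviprostat and sham/vehicle. The general leukocyte, neutrophil and macrophage lists are high in obstruction/vehicle, the seminal vesicle list is high in both obstruction/vehicle and sham/Eviprostat, and the skeletal muscle list is high in sham/Eviprostat.

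Eviprostat was next compared with vehicle in obstructed rats. Icam1 and Vcam1 fell in obstruction/Eviprostat, and the other 5 members did not pass the test. The 2 members lower of 7 stand beside 5.89% of kept probes that were lower, 3.9% that were higher and 9.8% called in either direction. With the slide as a block 8494 probes were called in place of 3536. After loess 2127 of 3536 calls were lower, against 1197 of 1329 after median centring and 5700 of 13521 with the scanner's log ratio. The median of the members was -0.15, against 0.01 over all kept probes. This comparison shares the obstruction/vehicle arrays with the previous one, and the later comparisons likewise share arrays, so their values are not independent.

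Icam1 read 0.20, 0.18 and 0.17 in obstruction/Eviprostat, against 1.75, 1.15 and 1.73 in obstruction/vehicle. The obstruction/Eviprostat arrays lay close together and below every obstruction/vehicle array. The difference was -1.36 ± 0.13 (SE), 2.57-fold lower (adjusted p = 4.86e-05), and -1.55, -0.97 and -1.56 within slides. From Cy5 alone it was -2.23.

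Vcam1 read -0.12, -0.01 and 0.10 in obstruction/Eviprostat, against 1.37, 0.69 and 1.64 in obstruction/vehicle. The groups did not overlap. The difference was -1.25 ± 0.19 (SE), 2.37-fold lower (adjusted p = 0.00109), and -1.49, -0.71 and -1.54 within slides.

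Selplg read -0.08, -0.00 and -0.14 in obstruction/Eviprostat and 0.11, 0.04 and 0.10 in obstruction/vehicle, without overlap, and its difference of -0.15 (95% interval -0.31 to 0.00) gave an adjusted p of 0.239. Groups without overlap were again found for 3 members, against 24.3% of kept probes. Itgal differed by -0.38 (95% interval -0.79 to 0.04, adjusted p = 0.271), and its Cy5 was well above background on 1 of 3 obstruction/Eviprostat arrays and 3 of 3 obstruction/vehicle arrays. Selplg and Itgal were both called without background correction (-0.09 and -0.18) and with the scanner's log ratio (-0.39 and -2.04), and Itgal also from Cy5 alone (-0.47, adjusted p = 0.0498). Sele differed by -0.10, Selp by -0.00 and Itga4 by -0.09, with intervals that all included 0.

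Among the partner integrins, 4 of 7 were lower in obstruction/Eviprostat and none higher, with a median of -0.69. Itgb2 fell by 1.80 (adjusted p = 0.000721) and Itgb1 by 0.69 (adjusted p = 0.00172), the Itgb1 call being lost after median centring (adjusted p = 0.376). Of the integrin activation and motility genes, 11 of 14 were lower, with a median of -1.19, among them Plek at -2.43 and Fermt3 at -1.96. Of the selectin and selectin ligand genes 3 of 15 were lower and 1 higher, with Cd44 at -2.05 (adjusted p = 6.32e-06). Of the other endothelial and junctional genes 2 of 14 were lower, among them Esam at -0.99. Il1a differed by -2.76 and Il1b by -3.62, both called, and their part in the Icam1 and Vcam1 values was not tested.

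Marker lists moved in the same arrays. In obstruction/Eviprostat, 8 of 9 macrophage markers, 7 of 9 neutrophil markers, 4 of 7 general leukocyte markers and 4 of 14 endothelial markers were lower than in obstruction/vehicle, as were all 7 seminal vesicle markers (median -5.01). Their part in the fall of Icam1 and Vcam1 was not tested.

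**Figure D3:**
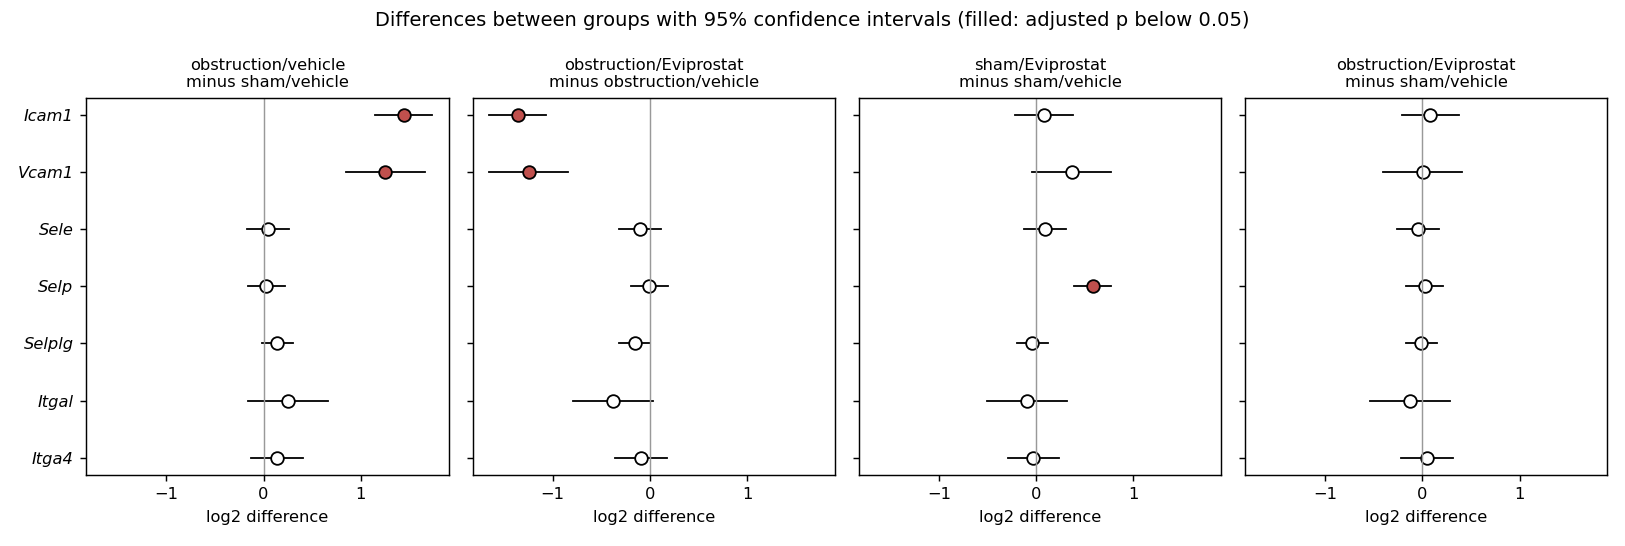
Difference in log2 ratio (horizontal axis) of each member in 4 comparisons, with 95% confidence intervals from limma and filled circles where the adjusted p was below 0.05. Icam1 and Vcam1 are filled at 1.44 and 1.25 with obstruction and at -1.36 and -1.25 with Eviprostat in obstructed rats, Selp is filled at 0.58 with Eviprostat in sham rats, and no member is filled for obstruction/Eviprostat against sham/vehicle.

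In sham rats the member that changed with Eviprostat was Selp. It read 0.43, 0.64 and 0.70 in sham/Eviprostat, against 0.01, 0.07 and -0.06 in sham/vehicle. All 3 sham/Eviprostat arrays were above all 9 others. The difference was 0.58 ± 0.09 (SE), 1.50-fold higher (adjusted p = 0.00506), and 0.42, 0.57 and 0.76 within slides. The 1 member higher of 7 stands beside 0.87% of kept probes that were higher, 0.659% that were lower and 1.53% called in either direction (552 probes, 2282 with the slide as a block). After loess 314 of 552 calls were higher, against 62 of 64 after median centring. The member median was 0.08, against 0.00 over all kept probes.

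Selp was a dim probe. Its net Cy5 intensity was 69.9, 300 and 326 in sham/Eviprostat, against 45.7, 115 and 133 in sham/vehicle, and its Cy3 signal was well above background on 9 of 12 arrays. The share was 1 of 3 arrays in sham/Eviprostat, where the 2 arrays with the highest Selp ratios had Cy3 near background, against 3 of 3 in sham/vehicle. With median centring in place of loess the difference was 0.69 and its adjusted p 0.0858. Without background correction it was 0.20 and with the scanner's log ratio 1.46, both called. The size of the change thus depended on the processing, and the scanner's log ratio differs from the loess values in dye normalization as well as in background subtraction.

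Markers of other tissues moved beside Selp. In sham/Eviprostat, 8 of 9 skeletal muscle markers were higher (1 of 9 after median centring), with a mean log2 ratio of 1.24 to 1.43 per array against -0.08 to 0.13 in sham/vehicle, and all 7 seminal vesicle markers were higher, at 4.65 to 4.69 against 0.02 to 0.07. None of 14 endothelial markers, 5 platelet markers or 9 macrophage markers was called by limma in this comparison, with 0, 0 and 2 of them at an unadjusted p under 0.05, and 1 endothelial marker was called lower with the slide as a block. On the obstruction/vehicle arrays the seminal vesicle list averaged 5.11 to 5.59, the muscle list averaged -1.55 to -1.37 and Selp read -0.00 to 0.08. The part of either tissue in the Selp value was not tested.

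Vcam1 read 0.23, 0.44 and 0.39 in sham/Eviprostat and 0.07, -0.08 and -0.03 in sham/vehicle. These groups did not overlap, and the difference of 0.37 (95% interval -0.04 to 0.77) did not pass the test (adjusted p = 0.558), but was called with the scanner's log ratio (0.48, adjusted p = 0.0191). Groups without overlap were found for 3 members and for 19% of kept probes. Icam1 differed by 0.08 (95% interval -0.21 to 0.38), and Sele, Selplg, Itgal and Itga4 by between -0.09 and 0.09. Of the measured genes in the 4 pathway lists, 1 was called: Fut4, a fucosyltransferase of selectin ligand synthesis, at 0.68 (adjusted p = 0.0346). That call was lost on leaving out any of the 6 arrays except sham/Eviprostat replicate 1, with adjusted p from 0.0934 to 0.154.

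**Figure D4:**
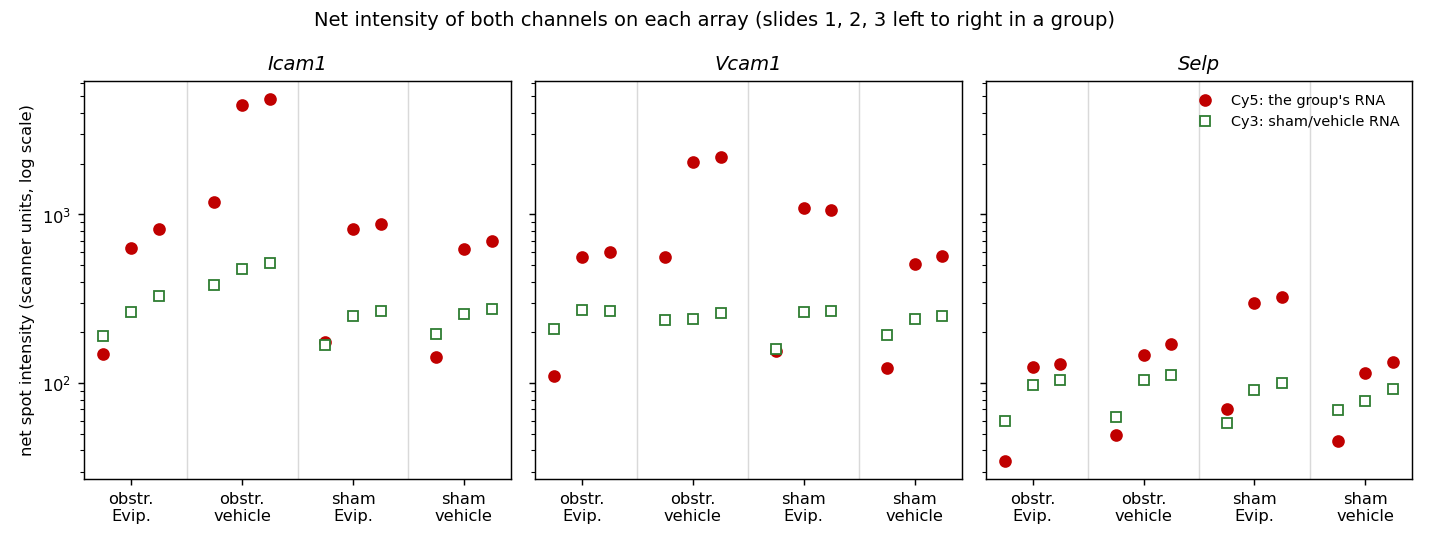
Net spot intensity (log axis, scanner units) of Icam1, Vcam1 and Selp on each array, for Cy5, which carries the group's RNA, and Cy3, which carries sham/vehicle RNA. Cy5 of Icam1 reaches 1182 to 4820 in obstruction/vehicle, its Cy3 is also highest there, and slide 1, the left point of each group, is the dimmest in Cy5.

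Whether Eviprostat acted differently after obstruction and after sham operation was tested as an interaction, the effect in obstructed rats minus that in sham rats. It was called for Icam1 at -1.44 ± 0.19 (SE, adjusted p = 0.000612), for Vcam1 at -1.61 ± 0.26 (adjusted p = 0.00257) and for Selp at -0.59 ± 0.12 (adjusted p = 0.0117), and in each case all 3 slides had the same sign. These 3 members lower of 7 stand beside 4.89% of kept probes that were lower, 3.78% that were higher and 8.66% called in either direction. After median centring 910 of 1017 calls were lower, against 1764 of 3127 after loess and 5173 of 11711 with the scanner's log ratio, and Selp lost its call (-0.78, adjusted p = 0.0559). With the slide as a block 7919 probes were called. Of the 50 measured genes in the 4 pathway lists 18 were called. Of 14 integrin activation and motility genes 9 were lower and none higher, among them Plek at -2.38, and of 7 partner integrin genes 3 were lower and none higher. The selectin and selectin ligand genes were split, with Cd44 lower at -1.93 and St3gal6 higher at 0.85. So were the other endothelial and junctional genes, with Podxl at -1.55 and Esam at -1.07 lower, against Alcam at 0.74 and Cdh5 at 0.51 higher. After median centring St3gal6, Podxl, Esam, Alcam and Cdh5 lost their calls.

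The 2 Eviprostat groups were also set against each other. Selp was lower in obstruction/Eviprostat, at -0.01, 0.08 and 0.04, against 0.43, 0.64 and 0.70 in sham/Eviprostat. The groups did not overlap, and the difference was -0.56 ± 0.09 (SE), 1.47-fold lower (adjusted p = 0.00507, and 0.0677 after median centring). The 1 member lower of 7 stands beside 1.31% of kept probes that were lower, 0.97% that were higher and 2.28% called in either direction (823 probes, 3157 with the slide as a block, 473 of 823 lower after loess and 107 of 140 after median centring). Skeletal muscle markers were lower for 8 of 9 and seminal vesicle markers for 7 of 7 in the same comparison, while macrophage markers were higher for 1 of 9. Among the 50 measured genes in the pathway lists, 1 was called by limma. It was Itgb1, the beta chain of VLA-4, lower in obstruction/Eviprostat at -0.64 (adjusted p = 0.00936). Vcam1 differed by -0.36 without overlap (95% interval -0.77 to 0.04, adjusted p = 0.494), and was called with the scanner's log ratio (-0.44, adjusted p = 0.0249). Groups without overlap were found for 2 members and for 21.7% of kept probes. Icam1 differed by -0.00 (95% interval -0.30 to 0.29).

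Finally, obstruction/Eviprostat was compared with sham/vehicle. None of the 7 members was called by limma, and none had an unadjusted p under 0.05, beside 0.294% of kept probes called (0.175% higher and 0.119% lower, 106 probes, 897 with the slide as a block). Icam1 differed by 0.08 (95% interval -0.21 to 0.38) and Vcam1 by 0.00 (95% interval -0.40 to 0.41). Both intervals lie below the lower bounds of the obstruction effect under vehicle, 1.15 for Icam1 and 0.84 for Vcam1. Icam1 was the 1 member without overlap, at 0.20, 0.18 and 0.17 in obstruction/Eviprostat against 0.16, 0.06 and 0.08 in sham/vehicle, where 17.2% of kept probes had none. Of the 50 measured genes in the 4 pathway lists none was called here by limma, and 7 had an unadjusted p under 0.05. Among tissue markers, 4 of 9 for skeletal muscle were lower, while 1 of 7 for seminal vesicle and 1 of 5 for urothelium were higher. After median centring no kept probe was called lower in this comparison.

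By group, the mean log2 ratio of Icam1 was 0.18 ± 0.01 in obstruction/Eviprostat, 1.54 ± 0.34 in obstruction/vehicle, 0.18 ± 0.05 in sham/Eviprostat and 0.10 ± 0.06 in sham/vehicle (SD, n = 3 each). No difference among the other 3 groups passed the test, although the obstruction/Eviprostat arrays lay above all sham/vehicle arrays. Vcam1 averaged -0.01 ± 0.11 in obstruction/Eviprostat, 1.24 ± 0.49 in obstruction/vehicle, 0.35 ± 0.11 in sham/Eviprostat and -0.01 ± 0.08 in sham/vehicle. Selp averaged 0.03 ± 0.04 in obstruction/Eviprostat, 0.04 ± 0.04 in obstruction/vehicle, 0.59 ± 0.14 in sham/Eviprostat and 0.01 ± 0.06 in sham/vehicle.

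For each member the 3 genes with the most similar log2 ratios over the 12 arrays were found among 14592 other named genes, by Pearson's r, as a description, since the arrays fall into groups. The nearest to Icam1 were the neutrophil chemokine gene Cxcl1 (r = 0.997), the tumour necrosis factor receptor gene Tnfrsf1b (0.996) and Smpdl3a (0.995). The nearest to Vcam1 were Mal2 (0.991), Mtmr1 (0.986) and Kcne4 (0.985), all of which also read higher in sham/Eviprostat (0.47, 1.08 and 0.93) than in sham/vehicle (-0.00, 0.03 and 0.09). The nearest to Selp were Rec114 (0.989), S100pbp (0.959) and Sgca (0.957), which encodes a sarcoglycan of striated muscle. Selplg was nearest to the endothelial receptor gene Aplnr (0.944), and Itgal to Apbb1ip (0.950), which encodes the integrin activator RIAM. Sele had no gene above 0.849 and Itga4 none above 0.930.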

How the data were processed

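The authors deposited the scanner output of 12 two-colour rat arrays, which holds Cy5 and Cy3 intensities of each spot and its surroundings. The submitters' processing notes name Agilent Feature Extraction 9.5.1.1 for it. The deposited log10 ratio of red over green, per the file headers, was background-subtracted and dye-normalized, and the value table of the series equals it (largest difference 0 over 540216 values). It was turned into a log2 ratio for one alternative. Per the labels, 1500 ng of sham/vehicle RNA was labelled, against 300 ng from the others.

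From the deposited intensities, background was corrected with normexp (offset 50) and log2 ratios were normalized by loess within arrays in limma 3.58.1 under R 4.3.3. Control spots and outlier flags were left out, and spots of a probe were averaged. Of 41012 probes, 36098 were kept, with Cy5 well above background on at least 3 of 12 arrays. Names come from the array, updated through RefSeq GRCr8 by accession for 10735 probes and by symbol or synonym for the rest, while 20842 probes have no name. A gene is represented by its brightest kept probe.

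All 12 arrays were fitted together with 1 mean per group (lmFit, eBayes, 8 residual degrees of freedom), with Benjamini-Hochberg adjustment over all kept probes at 0.05. Recovery of known changes was checked on simulated data. The members and lists were chosen with earlier results of these data known. All members are named, and from each list up to 4 genes with the largest called difference of the same sign on all 3 slides, apart from some that are not reported here. Same-numbered arrays share a slide per the file headers and deviated together (r from 0.16 to 0.78 in 18 of 18 pairs). The number of arrays limits the precision, and the labels call them biological replicates while describing pooled tissue. Figures were drawn with matplotlib 3.10.9. Alternatives were background correction, centring, the scanner's log ratio, Cy5 alone, probe filters, the slide as a block, slides 2 and 3 alone, the mean of a gene's probes, fits of only the arrays compared, and leaving out each array. A normexp offset of 16 was added after seeing the data.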

Additional observations from a re-analysis of the deposited data

Results flagged for a closer look

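For 3 members the effect of Eviprostat differed between obstructed and sham rats by the interaction test in limma. For Icam1 the effect was -1.36 in obstructed rats and 0.08 in sham rats, a difference of -1.44 (adjusted p = 0.000612). For Vcam1 it was -1.25 in obstructed rats and 0.37 in sham rats, a difference of -1.61 (adjusted p = 0.00257). For Selp it was -0.00 in obstructed rats and 0.58 in sham rats, a difference of -0.59 (adjusted p = 0.0117). The Selp call was lost after median centring (adjusted p = 0.0559), and its difference ran from -1.53 to -0.19 over 22 alternatives. The calls of Icam1 and Vcam1 held under all 22. The sign was the same on 3 of 3 slides for each gene.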

How the results depend on the processing

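No difference of a member changed from called in one direction to called in the other under any alternative run. The calls of Icam1 and Vcam1 in obstruction/vehicle against sham/vehicle and in obstruction/Eviprostat against obstruction/vehicle held under all 17 alternatives for each comparison. With each array left out in turn, the Icam1 difference with obstruction ran from 1.34 to 1.64 and that of Vcam1 from 1.05 to 1.52. The number of members called did not move with any array left out, at 2 for each of these comparisons, 1 for each comparison with sham/Eviprostat, 3 for the interaction and 0 for obstruction/Eviprostat against sham/vehicle. It was 4 for each of the first pair of comparisons without background correction and with the scanner's log ratio. From Cy5 alone, Itgal was called beside Icam1 and Vcam1 in that pair of comparisons. For sham/Eviprostat against sham/vehicle and for obstruction/Eviprostat against sham/Eviprostat the member count was 0 after median centring and 2 with the scanner's log ratio. The replicate block, the slide, changed no member's call, and gave adjusted p of 2.32e-06 for Icam1 and 0.000152 for Vcam1 with obstruction and 0.00102 for Selp in sham rats. The count of all probes called with obstruction was 4191, and 7911 without background correction, 1788 after median centring, 14480 with the scanner's log ratio, 9125 with the block and 1834 on only the arrays compared. For Eviprostat in obstructed rats the counts under the same settings were 3536, 7158, 1329, 13521, 8494 and 1768, and 5374 from Cy5 alone. For Eviprostat in sham rats 552 became 64 after median centring, 3423 with the scanner's log ratio, 2282 with the block and 1135 on slides 2 and 3. Between the 2 Eviprostat groups 823 became 140, 4279, 3157 and 2275 under those 4 settings. For obstruction/Eviprostat against sham/vehicle 106 became 10, 1924, 897 and 339, and 205 without background correction, 288 from Cy5 alone and 269 on only the arrays compared. For the interaction 3127 became 1017, 11711 and 7919 under the first 3, and 5830 without background correction. With arrays left out in turn these counts ran from 2403 (without sham/vehicle replicate 3) to 7196 (without obstruction/vehicle replicate 2) with obstruction, 1890 to 6374 for Eviprostat in obstructed rats, 231 to 537 in sham rats, 352 to 730 between the Eviprostat groups, 36 to 81 against sham/vehicle and 1819 to 5857 for the interaction. After median centring 1 of 14 other endothelial and junctional genes was higher with obstruction, against 3 after loess, and 8 of 14 integrin activation genes, against 11. Signal limits Itgal and Itga4, whose Cy3 was well above background on 1 and 2 of 12 arrays, and the second Itgal probe was below background on all 12.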

Other observations

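Lists of prostate and bladder epithelium, which hold no adhesion molecule of leukocytes, were read on the same arrays. Of 8 prostate secretory epithelium markers, 4 were lower in obstruction/vehicle than in sham/vehicle (list median -0.68), and 4 were higher in obstruction/Eviprostat than in obstruction/vehicle (median 0.72). Of 5 measured urothelium markers, 3 were higher in obstruction/vehicle than in sham/vehicle (median 2.88) and 3 lower in obstruction/Eviprostat than in obstruction/vehicle (median -1.66). Of all kept probes, 4.45% were lower and 7.16% higher with obstruction, against 3.9% higher and 5.89% lower with Eviprostat in obstructed rats. Lower calls with obstruction went from 1608 after loess to 175 after median centring, and higher calls with Eviprostat from 1409 to 132. In sham rats Eviprostat gave no call in either list by limma, with 3 prostate and 1 urothelium markers at an unadjusted p under 0.05.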
